A study of Mus musculus with 25 samples.

Results

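The alpha and beta tubulin genes that carry most of the tubulin mRNA of neurons were followed through 3 RNA-seq experiments on mouse hippocampal nuclei. The 9 genes were chosen by name from the 24411 genes listed in each table, and they were picked with their values in the knockdown comparison already known. For this reason the knockdown values are given as a description with no test, whereas aging and overexpression were tested. Tuba1a, Tuba1b, Tubb2b, Tubb3 and Tubb5 were taken as the 5 developmental isotypes, which are abundant in growing neurons, and Tuba4a, Tubb2a, Tubb4a and Tubb4b as the 4 adult isotypes, which gain in share as neurons mature. All 9 passed the minimum mean normalized count of 10 in each experiment.

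All libraries were made from male mice, from hippocampal nuclei sorted for the neuronal antigen NeuN. For aging, 3 libraries came from young wild-type mice (3 months) and 2 from aged wild-type mice (18 months). For overexpression, young mice received lentivirus in the hippocampus that encodes Ftl1, the ferritin light chain (7 libraries labelled Ftl1 OE), or GFP (5 controls), both driven by the neuronal synapsin-1 promoter. For knockdown, aged mice (18 months) received virus with a hairpin RNA directed at Ftl1 (4 libraries, labelled Ftl1 KD) or at luciferase (4 controls). The promoter of the hairpin is not given in the sources used here, and for both virus experiments the sources used here do not say whether a library is 1 animal or a pool, so the spread between their libraries may be partly technical. Each aging library came from a mouse of its own. The sort takes every NeuN+ nucleus, with or without virus.

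Ftl1, the gene that both viruses were meant to change, went against the labels in the knockdown experiment and did not pass in the other. Its normalized count lay between 24.2 and 56.2 in the knockdown controls and between 106 and 139.6 in those labelled Ftl1 KD (log2 fold change 1.47, SE 0.25, adjusted p = 0.000223 by limma). In the overexpression experiment it lay between 4580 and 28309 in controls and between 4737 and 7663 in those labelled Ftl1 OE, where control 9905 held the 28309 and stood apart from its group. Its log2 fold change there was −0.67 (SE 0.34, adjusted p = 0.681 by limma) and −0.27 without control 9905, so a higher level in the libraries labelled Ftl1 OE was not seen. Depth also differed. The knockdown controls held 68092 to 358560 reads and the libraries labelled Ftl1 KD 48902 to 97104, so depth also differed between these groups. Overexpression libraries held 9943996 to 17034325 reads and aging libraries 7969282 to 9537872. Rn45s, the ribosomal RNA precursor, took 31.9% to 55.3% of reads in knockdown controls and 30.3% to 34.5% in those labelled Ftl1 KD. The neuronal marker Rbfox3, which encodes NeuN, was detected in every library, as was Mbp of oligodendrocytes.

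Alpha and beta tubulin pair into heterodimers that join end to end into protofilaments, which form the wall of the microtubule. Axons and dendrites are built on microtubules, which carry cargo moved by kinesin and dynein motors, and neurons express several isotypes of each subunit at once. The isotypes share most of their sequence and differ mainly in the acidic tail at the carboxyl end, where chains of glutamate are added and removed and, on most alpha tubulins, a final tyrosine is cut off and put back. Dominant mutations in TUBA1A, TUBB2B and TUBB3 cause malformations of the human cortex, while TUBB4A is linked to myelin disease and TUBA4A to motor neuron disease. Free tubulin dimers also limit their own mRNA: TTC5 binds the first residues of a nascent tubulin chain and starts decay of the mRNA that encodes it.

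The coding ends show how the members differ. Below are the last 20 sense codons of the coding sequence of 7 members, followed by the stop codon, from GENCODE release M21 on mm10 (GRCm38), 5′ to 3′, with the glutamate codons GAA and GAG in capitals. They are shown because the tail is where the isotypes part and where most tubulin-modifying enzymes act.
Tuba4a: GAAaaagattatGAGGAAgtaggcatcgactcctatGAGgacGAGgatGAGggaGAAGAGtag
Tubb5: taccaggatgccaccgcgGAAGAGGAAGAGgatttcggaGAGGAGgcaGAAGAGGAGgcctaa
Tubb2b: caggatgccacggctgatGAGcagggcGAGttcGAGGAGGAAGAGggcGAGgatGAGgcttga
Tubb3: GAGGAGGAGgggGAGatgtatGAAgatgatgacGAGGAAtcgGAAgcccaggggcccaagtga
Tubb2a: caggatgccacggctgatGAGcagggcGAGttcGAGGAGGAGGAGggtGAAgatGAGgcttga
Tubb4a: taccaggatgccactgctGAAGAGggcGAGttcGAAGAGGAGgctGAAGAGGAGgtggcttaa
Tubb4b: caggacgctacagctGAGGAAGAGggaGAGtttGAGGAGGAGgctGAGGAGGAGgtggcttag

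Each of these tails held between 8 and 10 glutamate codons. Tuba4a ended in the glutamate codon gag before the stop and so encodes no final tyrosine. Tubb3, the neuron-specific beta tubulin, was the only one of the 7 that ended in a lysine codon, aag. At the other end, Tubb5 opened with atgagggaaatc, the 4 codons whose product TTC5 reads. The other beta tubulins of the list opened with codons for the same 4 residues. Across the whole coding sequence Tuba1a and Tuba1b were identical at 98.3% of bases and Tubb2a and Tubb2b at 96.5%, whereas Tuba1a and Tuba4a shared 84.7% and Tubb5 and Tubb4a 84.1%.

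This likeness bears on the counts, since a read from a shared stretch cannot be placed. Of all 100-base words in the transcript, 65.1% of those of Tuba1a, 69.5% of Tuba1b, 36.9% of Tubb2a, 27.7% of Tubb2b and 29.2% of Tubb4b were found in another annotated gene, and none of those of Tuba4a, Tubb3, Tubb4a or Tubb5. For Tuba1a and Tuba1b most shared words were with Tuba1c, which had at most 4 reads in any knockdown library. The split between Tuba1a and Tuba1b and between Tubb2a and Tubb2b is therefore uncertain, and sums over these sets are given beside the single genes. Tubb4b shared the most words with Tubb4b-ps1, which was not part of any sum.

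Each member is a gene of 4 exons in mm10. Tuba1a (chromosome 15, from 98949837 to 98953703) and Tuba1b (chromosome 15, from 98931425 to 98934565) are neighbours on the minus strand. Tubb2a (chromosome 13, from 34074274 to 34078007) and Tubb2b (chromosome 13, from 34126748 to 34130466) are also close together, on the minus strand. Tubb4a (chromosome 17, from 57080066 to 57087782) and Tubb5 (chromosome 17, from 35833921 to 35838306) share a chromosome. Tuba4a lies on chromosome 1 from 75214228 to 75219865, Tubb4b on chromosome 2 from 25222160 to 25224702, and Tubb3, alone on the plus strand, on chromosome 8 from 123411424 to 123422015.

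In young wild-type nuclei the most abundant members, per kilobase of transcript, were Tubb2a and Tuba1a. Their levels were 4474 ± 1160 and 3576 ± 257 normalized counts per kilobase (SD, n = 3), and their ranges overlapped. Tuba1b, the alpha tubulin of nearly all dividing and resting cells, followed at 2368 ± 274, lower than Tuba1a in every young library. Tubb4a, abundant in neurons and oligodendrocytes, was next at 1773 ± 461 and overlapped with Tuba1b. Tubb5 (942 ± 172), Tuba4a (885 ± 139), Tubb4b (831 ± 77.6) and Tubb3 (798 ± 131) overlapped with one another in that order. Tubb2b, which is high in migrating neurons of the embryo, was lowest at 239 ± 26.2, below every other member in each young library. All 9 together took 0.302% to 0.398% of reads in young and 0.254% to 0.360% in aged libraries.

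Tuba1a, the main alpha tubulin of growing neurons, was the most abundant member in every knockdown library. Its normalized counts were 242, 217, 208 and 141 in controls 1, 2, 3 and 5, and 617, 686, 665 and 709.6 in those labelled Ftl1 KD 1, 3, 4 and 5. Every library labelled Ftl1 KD lay above every control. The log2 fold change was 1.75 (SE 0.19), on the scale of log2(normalized count + 1) as for every fold change here, and the means were 202 ± 42.8 and 669 ± 39.7 (SD, n = 4 each). In bulk nuclei, another mix of nuclei and more or less RNA per nucleus cannot be told apart.

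Tuba1b differed less. Its counts were 58.5, 115, 58.0 and 73.6 in controls and 113, 124, 89.3 and 113 in those labelled Ftl1 KD. The groups overlapped through control 2, and the log2 fold change was 0.57 (SE 0.24). Tuba4a, the alpha tubulin of mature neurons that is translated without its tyrosine, had 30.2, 47.6, 18.7 and 37.6 in controls and 21.1, 37.9, 40.1 and 27.9 in those labelled Ftl1 KD. The 2 groups covered nearly the same range, and the log2 fold change was −0.04 (SE 0.30, 95% interval −0.66 to 0.57), from as few as 10 reads in a library. Summed over Tuba1a, Tuba1b and Tuba1c, the log2 fold change was 1.49.

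Of the developmental beta tubulins, Tubb5, the isotype of neural progenitors and of most other cells, had 59.5, 58.1, 69.3 and 43.5 counts in controls and 146, 162, 157 and 187 in those labelled Ftl1 KD. No library labelled Ftl1 KD came near a control, and the log2 fold change was 1.50 (SE 0.21). Tubb2b had 42.5, 28.2, 59.9 and 19.2 in controls and 138, 132, 140.3 and 147 in those labelled Ftl1 KD. Its controls spread widely while the libraries labelled Ftl1 KD were nearly level, and its log2 fold change of 1.99 (SE 0.27) was the highest of the 9. Tubb3, used as a marker of young neurons, had 40.6, 31.9, 67.4 and 41.4 in controls and 116, 103, 102 and 131 in those labelled Ftl1 KD. Again the groups did not overlap, with a log2 fold change of 1.34 (SE 0.24).

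Among the adult beta tubulins, Tubb2a stood with the developmental isotypes. It had 113, 125, 111 and 85.7 counts in controls and 227, 221, 257 and 244 in those labelled Ftl1 KD, with no overlap and a log2 fold change of 1.13 (SE 0.20). Its coding sequence is nearly that of Tubb2b, and summed over the pair the log2 fold change was 1.38. Tubb4a had 44.4, 44.4, 63.7 and 28.8 in controls and 55.6, 40.6, 49.2 and 57.3 in those labelled Ftl1 KD. The groups overlapped over most of their range (log2 fold change 0.20, SE 0.26, 95% interval −0.33 to 0.73). Tubb4b, found in neurons and in ciliated cells, had 31.1, 35.9, 24.3 and 16.7 in controls and 47.0, 35.2, 27.3 and 45.5 in those labelled Ftl1 KD, and the groups overlapped (log2 fold change 0.53, SE 0.29, 95% interval −0.06 to 1.12).

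**Figure D1:**
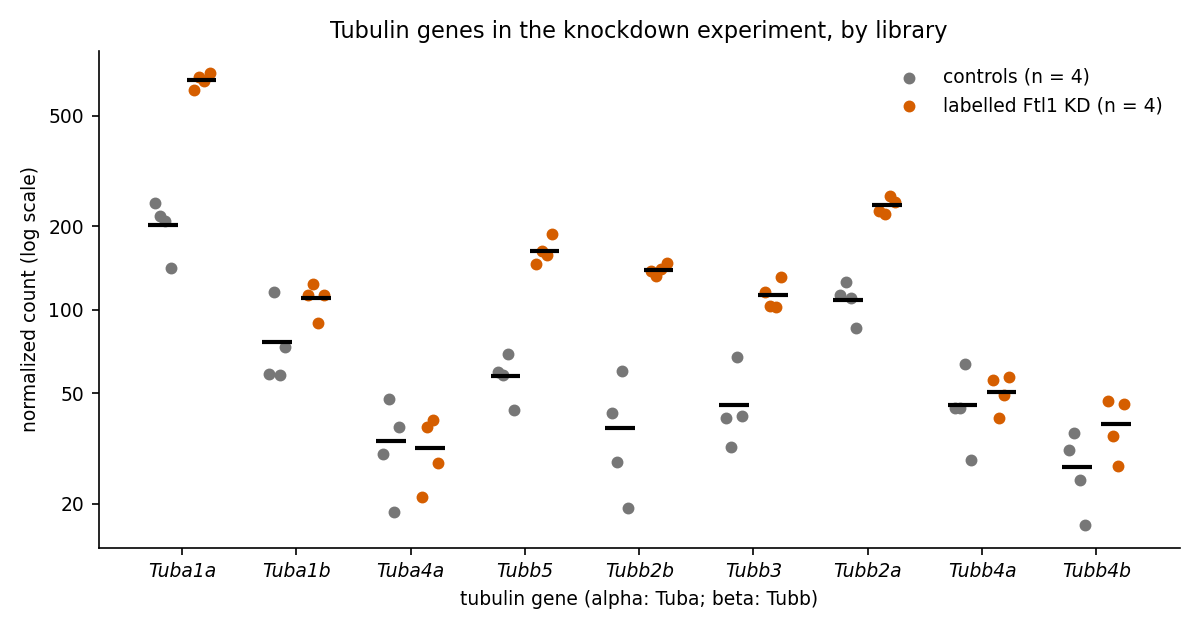
Normalized counts of the 9 tubulin genes in each library of the knockdown experiment, on a log scale. Points are libraries (4 controls in grey, 4 labelled Ftl1 KD in orange) and lines are group means. For Tuba1a, Tubb5, Tubb2b, Tubb3 and Tubb2a the groups do not overlap, and for the other 4 they do.

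Over the 9 members, 8 had a log2 fold change above 0, as did 49.5% of all genes tested, and 5 were at or above 1, with a median of 1.13. All genes tested had a median of −0.01, and 10.3% of them were at or above 1. The groups did not overlap for 5 members, all higher in the libraries labelled Ftl1 KD, and 11.8% of the 1460 genes tested were of this kind. Since the members were chosen with these values known, nothing is read from the comparison with all genes. Of the 5 developmental isotypes, 4 did not overlap and the median was 1.50. Of the 4 adult isotypes, 1 did not overlap and the median was 0.36. Another scaling, in which each library is centred on its median, moved the median of all genes from −0.01 to 0.10 and that of the 9 members to 1.24.

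Together the 9 genes took 0.366% to 0.678% of all reads in knockdown controls and 1.59% to 1.89% in those labelled Ftl1 KD. Other RNAs moved with the members in these libraries, and their part in the result was not tested. The summed normalized count of 9 nuclear RNAs (Malat1 highest) was 631 to 1265 in controls and 226 to 329 in those labelled Ftl1 KD, and 5 of the 5 tested fell (limma, adjusted p at most 0.05). That of 17 abundant cytoplasmic mRNAs was 1512 to 1924 and 2263 to 2404, with 5 of 16 tested higher and 1 lower and a median log2 fold change of 0.27. Over the whole lists, 2 of the 9 nuclear RNAs and 13 of the 17 mRNAs were higher in mean in the libraries labelled Ftl1 KD.

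Shares within each family do not depend on how libraries are scaled. Per kilobase, Tuba1a made up 75.2%, 59.2%, 74.3% and 58.6% of the 3 alpha tubulins in controls 1, 2, 3 and 5, and 81.9% to 85.0% in those labelled Ftl1 KD. The lowest library labelled Ftl1 KD was above the highest control. Controls 1 and 3, with the higher shares, held 103394 and 68092 reads, and controls 2 and 5 held 358560 and 318645. The part of depth in these shares was not tested. The mean share of Tuba1b was 26.1% ± 6.98 in controls and 14.1% ± 1.74 in those labelled Ftl1 KD (SD, n = 4 each), and that of Tuba4a lay between 4.25% and 9.90% and between 1.79% and 3.25%. Without correction for length the share of Tuba1a was 64.8% ± 9.58 and 82.6% ± 1.27.

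Of the 6 beta tubulins, the share of Tubb2a differed by less than the spread of the controls, with 40.7% ± 4.87 in controls and 38.8% ± 2.50 in those labelled Ftl1 KD. Tubb2b had 9.86% ± 3.10 and 16.8% ± 0.36, without overlap. Tubb5 lay between 12.7% and 13.2% and between 14.6% and 17.3%, also without overlap. Tubb4a had 11.9% ± 1.57 and 5.97% ± 0.63, also without overlap, here with the lower share in those labelled Ftl1 KD. The share of Tubb3 differed by less than the spread of the controls (14.5% ± 3.98 and 15.9% ± 1.09). Tubb4b had 10.1% ± 2.54 and 6.37% ± 1.39, with overlap.

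**Figure D2:**
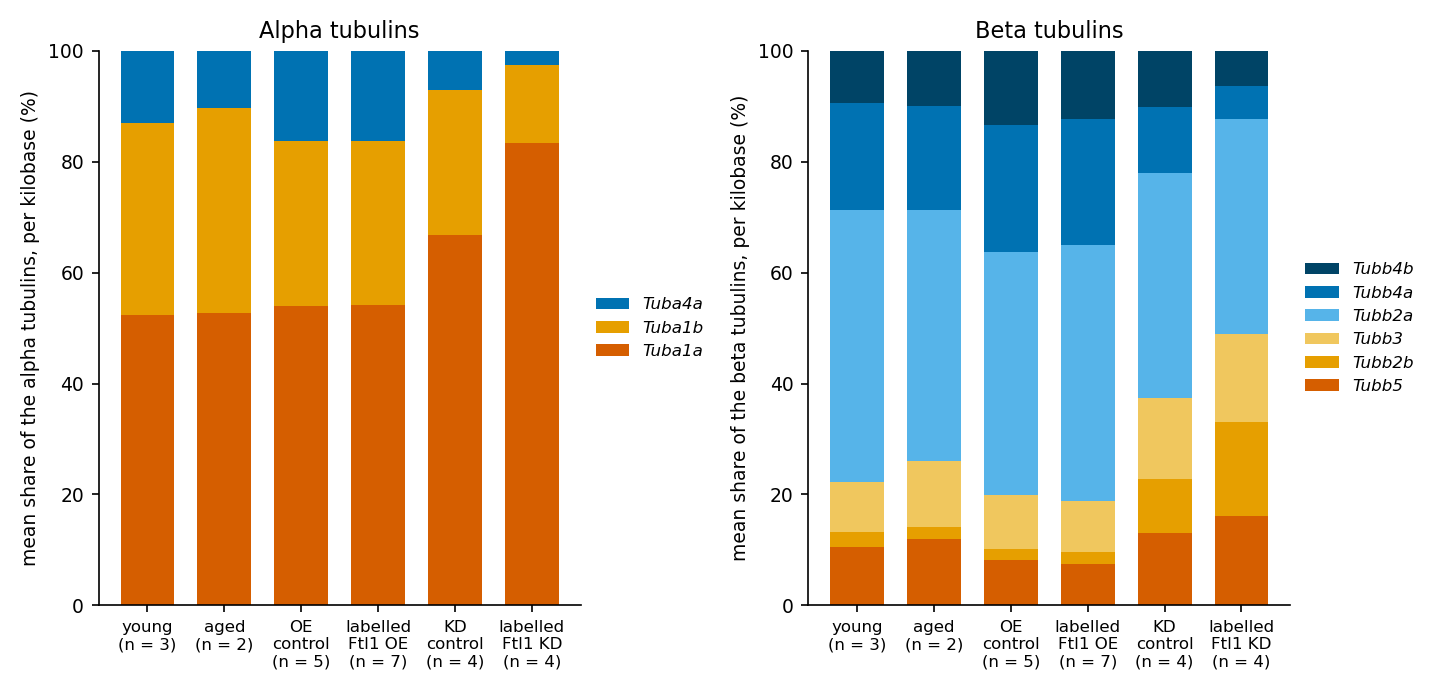
Mean share of each member among the 3 alpha tubulins (left) and the 6 beta tubulins (right), in percent of normalized counts per kilobase of transcript, for the 6 groups. Warm colours are developmental and blue colours adult isotypes. Tuba1a reaches 83.4% of the alpha tubulins in the libraries labelled Ftl1 KD, against 52.4% to 66.8% in the other groups.

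The developmental isotypes were set against the adult isotypes in each library, as the mean log2 level of the first minus that of the second. In the knockdown experiment this difference was 0.53, 0.26, 0.90 and 0.53 in controls and 1.53, 1.59, 1.44 and 1.57 in those labelled Ftl1 KD. The groups did not overlap, and their means differed by 0.98 (SE 0.14). Without Tuba1b and Tubb4b they differed by 1.22, and from summed counts by 0.77. Tubb5, also an isotype of most other cells, was kept there. Tuba1b, which was left out, had the lowest log2 fold change of the developmental isotypes (0.57). In percent of all tubulin per kilobase, the developmental isotypes held 65.3% ± 1.35 in controls and 75.1% ± 1.32 in those labelled Ftl1 KD (SD, n = 4 each).

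The same difference was below 0 in every library of the other experiments. It was −0.34, −0.70 and −0.43 in the young and −0.26 and −0.31 in the aged libraries, so both aged libraries lay above all young ones, by 0.21 on average (SE 0.11). Without young library 2 the difference was 0.10, and without young library 1 it was 0.28. For overexpression it ranged from −0.96 to −0.71 in controls and from −1.03 to −0.63 in those labelled Ftl1 OE, and the means differed by −0.02 (SE 0.07). The developmental share was 50.2% ± 3.78 in young (n = 3), 54.7% ± 1.59 in aged (n = 2), 51.4% ± 3.24 in overexpression controls (n = 5) and 45.6% to 53.5% in those labelled Ftl1 OE (n = 7). The knockdown controls, at 65.3%, were thus the highest of the control groups, but they were also far shallower and belong to another experiment, and the gap between experiments was not tested.

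**Figure D3:**
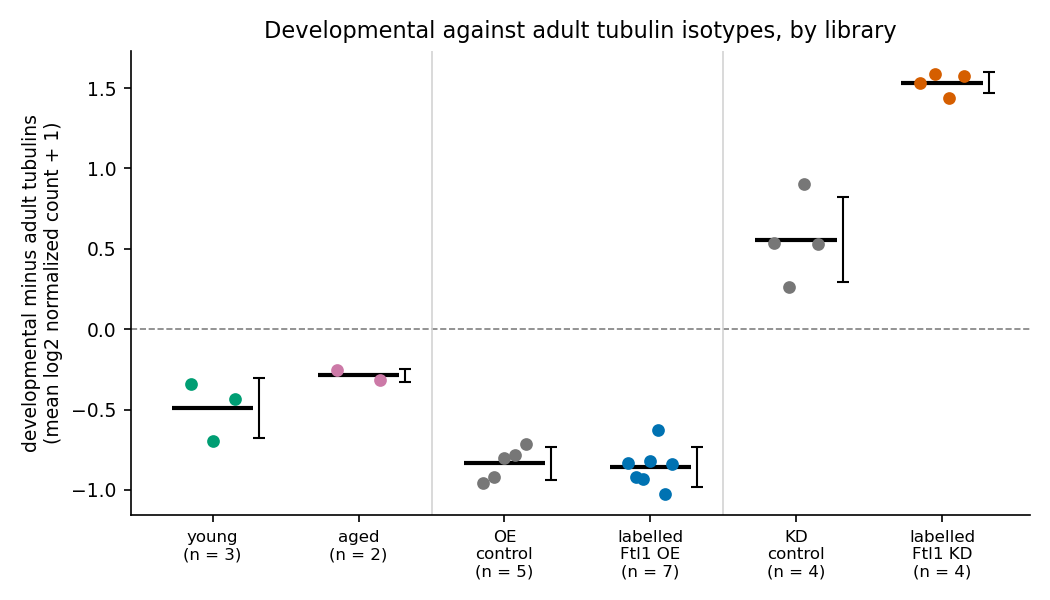
Mean log2(normalized count + 1) of the 5 developmental isotypes minus that of the 4 adult isotypes, 1 point per library. Lines are group means, bars 1 SD, and grey lines part the 3 experiments. The libraries labelled Ftl1 KD lie between 1.44 and 1.59, above all others.

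With age, none of the 9 members passed the test. The adjusted p-values lay between 0.687 and 0.983 by limma, 0% of the 13712 genes tested were called, and the two-sided exact permutation test cannot go below p = 0.2 with 3 libraries against 2. The median log2 fold change of the members was −0.14, against −0.03 for all genes, and 8 of 9 were below 0, as were 51.7% of all genes. At an unadjusted p of 0.05 by limma 0 of the 9 passed, against 7.94% of all genes.

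Tuba4a was the only member whose ages did not overlap, and 12.5% of all genes were lower in this way. It had 2303, 2968 and 2268 normalized counts in young libraries and 1584 and 2091 in aged libraries, a log2 fold change of −0.45 (SE 0.27, adjusted p = 0.687 by limma, exact permutation p = 0.2, two-sided, the smallest it can give here). Tubb2b had 584, 471 and 513 in young and 288 and 480.5 in aged libraries, and the second aged library lay within the young range (log2 fold change −0.48, SE 0.35, adjusted p = 0.734 by limma). Tubb3 was the only member above 0, at 0.19 (SE 0.28, adjusted p = 0.878 by limma), with 1256, 1473 and 1743 in young and 1450.0 and 1952 in aged libraries. Tuba1a had 5976, 6903 and 6465 in young and 4873 and 7208 in aged libraries, so that the 2 aged libraries lay on either side of the young ones (log2 fold change −0.12, SE 0.28). The other members had log2 fold changes of −0.34 (Tubb2a), −0.28 (Tubb4a), −0.14 (Tubb4b), −0.04 (Tubb5) and −0.03 (Tuba1b), and the 95% interval of each included 0. Aged library 2 was the lower of the aged pair for all 9 members.

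In the libraries labelled Ftl1 OE all 9 members had a lower mean than in controls, and none passed the test. The log2 fold changes lay between −0.44 (Tubb4b) and −0.23 (Tubb2a), with adjusted p-values between 0.695 and 0.784 by limma and a median of −0.38. Of the 14099 genes tested 0% were called, 42.6% were below 0 and the median was 0.10. The smallest exact permutation p among the members was 0.119, for Tubb4b (two-sided), and 0.534 after adjustment over the 18 exact tests of both experiments. The groups overlapped for all 9 members, as for all but 0.582% of genes. At an unadjusted p of 0.05 by limma none of the 9 passed, against 7.26% of all genes.

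Tuba1a had 22273, 15364, 41042, 27929 and 35235 normalized counts in controls 9901, 9904, 9905, 9925 and 9926, and a lowest, median and highest count of 15858, 21882 and 30063 in those labelled Ftl1 OE. Tuba4a had 10211, 7708, 27677, 10972 and 13768 in the same controls, and 6609, 10454 and 14517 in those labelled Ftl1 OE. Control 9905 was the highest of all 12 libraries for 8 of the 9 members, and the 9 genes took 1.07% of its reads, against 0.553% to 0.838% in the other controls and 0.545% to 0.852% in those labelled Ftl1 OE. Without it the log2 fold change of Tuba1a was −0.23, that of Tuba4a −0.10 and that of Tubb3 −0.09, and the median over the members −0.16. All 9 stayed below 0. Other lists differed in the same comparison, with 0 genes past the test, and their part in the tubulin values was not tested. The summed count of 9 microglia markers was 2937 to 6772 in controls and 1669 to 3116 in those labelled Ftl1 OE, with all 9 lower in mean. That of 8 interneuron markers was 8978 to 16086 and 7300 to 9034, but 3 of the 8 were higher in mean. That of 17 abundant cytoplasmic mRNAs was 340435 to 573108 and 284128 to 406123, with 2 of the 17 higher in mean. The 9 nuclear RNAs summed to 62230 to 258000 and 78914 to 336884. The shares within families were close between the groups, with Tuba1a at 53.9% ± 4.10 of alpha tubulins in controls and 54.2% ± 0.93 in those labelled Ftl1 OE, and Tubb2a at 43.7% ± 5.27 and 46.2% ± 1.75 of beta tubulins.

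**Figure D4:**
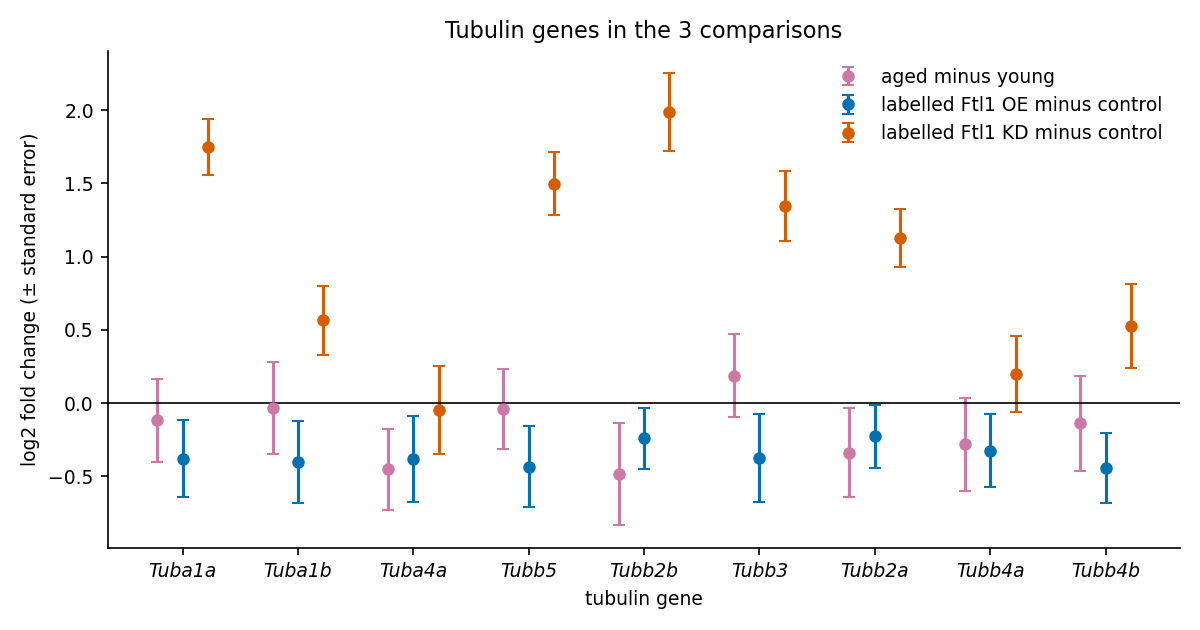
Log2 fold change of the 9 members with age (2 aged against 3 young libraries), in libraries labelled Ftl1 OE (7 against 5 controls) and in those labelled Ftl1 KD (4 against 4 controls). Bars are standard errors from limma. The first 2 comparisons lie between −0.48 and 0.19, and in the third Tubb2b is highest at 1.99 and Tuba4a is at −0.04.

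Genes that act on tubulin were counted in lists. Like the members, these lists were chosen with earlier results of these data known, so their calls are a description and no independent support. The minimum mean count was taken over both groups, so at the knockdown depth a gene can pass it through the group where it is high. Counts over each whole list are therefore given beside those of the tested genes. In the knockdown experiment 24.2% of all genes tested passed, 10.5% higher and 13.7% lower. These were 154 genes higher and 200 lower, and with each library centred on its median 197 were higher and 161 lower. Of 23 genes for tubulin folding, 9 were tested and 3 rose, all of them subunits of the CCT chaperonin that folds new tubulin. These were Cct8 (log2 fold change 1.53, SE 0.36, adjusted p = 0.00278 by limma), Cct6a at 1.15 and Tcp1 at 1.07, and all 9 tested genes were above 0 with a median of 0.68. Of the whole list, 17 of 23 were higher in mean in the libraries labelled Ftl1 KD. Of 26 microtubule-associated protein genes, 7 were tested, and Map1b (1.03), which stabilises growing axons, and Mapt (1.10), which encodes tau, rose. Of the whole list, 11 of 26 were higher in mean. Map1a, the adult partner of Map1b, was at −0.97 (SE 0.37, adjusted p = 0.0555 by limma) and did not pass.

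The list of plus-end and dynamics genes had the most calls. Of 32 genes 12 were tested and 7 rose, and 11 of the tested genes were above 0. Of the whole list, 20 of 32 were higher in mean in the libraries labelled Ftl1 KD. The 3 highest were Dpysl5 at 2.68 (SE 0.42), Dpysl3 at 2.06 (SE 0.29) and Mapre2 at 1.90 (SE 0.36). Dpysl5 and Dpysl3 encode collapsin response mediator proteins, which bind tubulin dimers, and Mapre2 encodes an end-binding protein of growing microtubule tips. Stmn1 and Stmn2, whose products hold free tubulin dimers, rose by 1.52 and 1.67. Of 27 tubulin-modifying enzymes only the acetyltransferase gene Atat1 was tested (0.44, SE 0.37, adjusted p = 0.402 by limma), since the others, among them the tyrosine ligase Ttl and the carboxypeptidases Vash1 and Vash2, were below the minimum count. None of the 11 genes for autoregulation of tubulin RNA, Ttc5 included, and none of the 17 of the gamma tubulin ring, which nucleates microtubules, reached it either.

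Of 15 genes for actin and intermediate filaments, 10 were tested and 4 rose, and 12 of the 15 were higher in mean. The 3 highest were Gap43 at 2.00 (SE 0.37) and Marcksl1 at 2.00 (SE 0.37), 2 growth cone proteins, and Actg1 at 1.25 (SE 0.21). With age and in the libraries labelled Ftl1 OE no gene of these lists passed by limma, where 0% of all genes did. The folding list, for example, had 10 of 23 genes above 0 with age (median −0.03) and 9 of 23 in those labelled Ftl1 OE (median −0.18).

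The 11 other tubulin genes were at far lower counts. Tuba3b and Tubb1 were listed at 0 in all 25 libraries, and in the knockdown experiment the mean sum of the 11 was 9.21 normalized counts in controls and 10.8 in those labelled Ftl1 KD, too few for any to be tested. The gamma tubulin genes Tubg1 and Tubg2 had at most 11 and 14 reads there. With age, the alpha tubulin gene Tuba8 had 103, 154 and 134 normalized counts in young and 35.6 and 5.51 in aged libraries. The ages did not overlap, the log2 fold change was −3.07 (SE 0.86) and the adjusted p was 0.441 by limma. Tubd1, a tubulin of centrioles, had a log2 fold change of −1.49 (SE 0.62, adjusted p = 0.608 by limma). Its ages did not overlap either, and 12.5% of all genes were lower in this way. The 95% intervals of Tuba8 (−4.93 to −1.20) and Tubd1 (−2.85 to −0.14) left out 0 before adjustment. Tubg1 (−0.16), Tubg2 (−0.42) and Tube1 (−2.64, with 1 aged library at 0) had intervals that included 0. Tubb6 had 48.7, 22.3 and 31.9 normalized counts in young and 0 and 104 in aged libraries, so its fitted fold change is not given as a direction. In the libraries labelled Ftl1 OE the log2 fold changes of the 7 tested lay between −1.32 (Tuba1c) and 1.99 (Tube1), none past the test.

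The genes most like Tuba1a were sought by the root mean square difference of log2 levels, each centred on its mean within an experiment, over all 25 libraries and 1459 genes tested in all 3 experiments. The nearest was Tubb5 at 0.20, followed by Actg1 (0.25), Atp5b (0.26), Tubb2a (0.26) and Slc25a3 (0.26), which encode a cytoplasmic actin, a subunit of ATP synthase, a tubulin and the mitochondrial phosphate carrier. Tubb3 was at place 7 and Tubb2b at place 12, while Tuba1b was at place 52, Tubb4a at 141 and Tuba4a at 436. The nearest to Tubb4a were Gde1 (0.17), Gps1 (0.19), Clta (0.21), Ap2m1 (0.21) and Ddost (0.22), and the nearest member was Tubb4b at place 42. The libraries compared include those of the knockdown experiment, from which the members were chosen.

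Marker lists of cell types also differed between the knockdown groups, and their part in the tubulin values was not tested. The summed count of 9 oligodendrocyte markers was 39.7 to 96.8 in controls and 10.9 to 24.4 in those labelled Ftl1 KD, and both genes tested, Mbp and Cnp, fell. That of 9 markers of newborn neurons was 30.3 to 40.6 and 78.3 to 107, but only 5 of the 9 were higher in mean. Stmn1 had the highest level of them, was the 1 gene tested, rose and also belongs to the dynamics list. Dcx, which defines newborn neurons, had mean counts of 2.65 and 5.49, and Eomes was at 0. The 6 markers of oligodendrocyte precursors went the opposite way to the 9 of oligodendrocytes, with 2.93 to 16.9 and 17.3 to 32.8 and all 6 higher in mean. The 9 of microglia summed to a mean of 11.9 and 4.84, with overlap. The 9 astrocyte markers summed to 39.3 to 74.6 and 70.3 to 85.2, with Slc1a3 higher, but only 6 of the 9 were higher in mean. The 8 interneuron markers summed to 39.3 to 77.4 and 71.9 to 94.7, with 5 of the 8 higher in mean. The 6 of dentate granule cells summed to 37.4 to 85.9 and 14.7 to 34.3, with 1 higher in mean. The 6 of CA3 summed to 93.6 to 156 and 39.7 to 67.6, with 1 higher, and the 5 of CA1 to 52.4 to 88.6 and 35.5 to 70.5, with 2 higher. The 8 general neuronal markers summed to 200.4 to 295 and 222 to 238.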

How the data were processed

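Neuronal nuclei RNA-seq tables of 25 libraries in 3 experiments were analysed. The authors aligned reads with STAR to mm10, quantified genes with RSEM and deposited counts normalized with DESeq2, each experiment separately, so values can be compared within an experiment only (unit signal). The sample records name polyA-enriched strand-specific SureSelect libraries, the study's methods Smart-seq2 and Nextera. The deposited log2 fold changes, score (Wald statistic) and p-value columns of the authors' own comparisons were not used. Whole reads were recovered for 100% of values within a tolerance of 0.01.

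Genes whose normalized counts averaged 10 or more were tested on log2(normalized count + 1) with limma 3.58.1 (trend, R 4.3.3), each experiment by itself, with Benjamini-Hochberg adjustment over all genes tested and a threshold of 0.05. Exact two-sided permutation tests used scipy 1.17.1. edgeR 4.0.16 and DESeq2 1.42.0 on recovered reads, other pseudocounts, filters and scalings, and leaving out each library were alternatives. The developmental share without length correction, or with a library left out, was an alternative chosen after seeing the data. limma was tested on simulated data. Levels per kilobase use the longest of the best-ranked APPRIS principal transcripts of each gene in GENCODE M21, which matched all 9. The members, the classes and the gene lists were chosen with earlier results of these data known. Named genes were all members, other tubulins tested, Ftl1, up to 3 genes of each microtubule list and direction past the threshold with the largest fold change, and the 5 genes most like Tuba1a or Tubb4a, and genes of the cell type and RNA lists at 0 or with the highest level; other genes named were chosen after their values were seen. Same-numbered libraries of the 2 groups did not deviate together, so no pairing was used. Protein sequences and mitochondrially encoded genes were not used here. The coding ends of the other 2 members are not reported here.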

Additional observations from a re-analysis of the deposited data

Results flagged for a closer look

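Ftl1 in overexpression control 9905 stood far from the other controls, with 28309 normalized counts against 4580 to 9953. Its gap to the next control was 0.774 of the range of the group, above the critical value of 0.71 for 5 libraries. Such a gap was looked for in 40 pairs of a gene (the 9 members and Ftl1) and a group of 4 to 7 libraries, and chance alone gives it in about 1 of 20. No tubulin gene was marked in this way, although control 9905 was the highest of its group for most members, and the tubulin fold changes without it stand beside the overexpression results.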

How the results depend on the processing

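Of the 9 members, 0 passed the adjusted threshold with age or in the libraries labelled Ftl1 OE under any alternative, edgeR and DESeq2 included. In the knockdown experiment 5 members were at a log2 fold change of 1 or more under every library left out. A minimum mean count of 100, taken over both groups, left 3 members, all at 1 or more with a median of 1.50. Such a filter favours members that are high in the libraries labelled Ftl1 KD. Tubb5 passed it only through them (mean 163, against 57.6 in controls), so nothing is read from this setting. With paralogs summed the median was 1.38. There the sum stood for each member of its set (Tuba1a and Tuba1b, Tubb2a and Tubb2b, Tubb4a and Tubb4b). The median thus runs over repeated values, and Tubb2a and Tubb2b are of different classes, so nothing is read from this setting either. The knockdown difference between developmental and adult isotypes was 1.22 without Tuba1b and Tubb4b, 0.77 from summed counts and 0.88 to 1.09 with 1 library left out. With the replicate number as a block, the median log2 fold change was −0.21 with age and 1.16 in the knockdown experiment, and 0 and 5 members were counted, so no call changed; same-numbered libraries showed no shared deviation (correlations −0.05 to 0.02). With 1 library left out, the median with age ranged from −0.51 (without aged 3) to 0.077 (without aged 2), so its direction rests on aged library 2, and single members with age ranged from −0.40 to 0.16 (Tuba1a), −0.51 to 0.44 (Tuba1b), −0.027 to 0.40 (Tubb3), −0.64 to 0.077 (Tubb4a), −0.63 to 0.36 (Tubb4b), −0.20 to 0.042 (Tubb5), −0.85 (without aged 3) to −0.12 (without aged 2) for Tubb2b, −0.65 to −0.25 (likewise) for Tuba4a and −0.56 (without young 1) to −0.17 (without young 2) for Tubb2a. The difference between developmental and adult isotypes with age was 0.10 to 0.28. In the libraries labelled Ftl1 OE the median was −0.57 without control 9904 and −0.16 without control 9905. Tuba1b with age was 0.027 by edgeR and 0.036 by DESeq2, against −0.034 by limma. By DESeq2, 1 gene of the microtubule lists passed with age and 1 in the libraries labelled Ftl1 OE, against 0 by limma; the cause was not tested. With as few as 10 reads for Tuba4a in a library, small knockdown differences were not detectable at this depth. Over all genes, the knockdown comparison called 154 higher and 200 lower, against 80 and 93 with the replicate block, 117 and 118 without control 5, and 12 and 6 of the 29 genes left with a minimum mean count of 100. DESeq2 called 33 higher and 105 lower with age and 7 and 94 in the libraries labelled Ftl1 OE, where limma called 0.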
